A study of Mus musculus with 2 samples.

Results

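The genes described are 7 surface markers used to recognise or isolate stromal cells of the kidney: Thy1, Eng, Nt5e, Entpd2, Cd248, Vcam1 and Itga8. They were chosen by symbol, with earlier results of these data known, and all 7 were found among the 53698 gene entries of both libraries. Single-cell RNA profiles came from FVBN mouse kidney cells sorted for the PDGF receptors alpha and beta, as the labels give it. Analysed here were 1 library labelled sham and 1 labelled UUO. UUO is the tying of a ureter (unilateral ureteral obstruction), used to model kidney fibrosis in mice, and those cells were taken 10 days later. The number, age and sex of the mice and any transgene are not named in the labels, although both matrices hold a reporter entry, eGFP. With 1 library per group there was no replicate check and no test, cells are not replicates, and every interval below covers counting error only. Injury genes such as Spp1 ran against the labels, so both libraries are named as labelled and no difference is ascribed to the operation.

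The 7 proteins sit on the cell surface and do different work there. THY1 (CD90) and NT5E (CD73) are held in the membrane by a GPI anchor, and THY1 binds integrins and syndecan-4 on neighbouring cells. ENTPD2 and NT5E act in turn on extracellular nucleotides: the former cuts ATP to ADP, and the latter turns AMP into adenosine. ENG (CD105, endoglin) is a co-receptor for BMP9 and TGF-beta, best known from endothelium. CD248 (endosialin) is a lectin-like glycoprotein of pericytes and fibroblasts. VCAM1 is an immunoglobulin-type adhesion molecule that leukocytes bind through integrin alpha4, and ITGA8 pairs with ITGB1 into a receptor for nephronectin and other matrix proteins. In kidney, Nt5e is known from proximal tubule as well as from cortical fibroblasts, and Vcam1 from injured tubule as well as from stroma.

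The library labelled sham held 10812 barcodes with 85359332 unique molecular identifiers (UMIs, tags that mark each captured transcript), and the library labelled UUO 1291 barcodes with 6023072. Filters left 9748 and 1043 cells, whose median depths were 7571 and 4132 UMIs. The libraries shared 16 barcodes, 12 of them among retained cells. Each cell was placed in a class by the share of its UMIs from fixed marker genes, none of which is among the 7. Fibroblasts (8283 and 629 cells) and mural cells (45 and 25; pericytes, smooth muscle and renin cells) together made up the stromal cells, 8328 (85.4% of retained cells) labelled sham and 654 (62.7%) labelled UUO. Their median depths were 8039 and 5197 UMIs. The other classes were endothelial (351 and 74 cells), macrophage or dendritic (285 and 3), T or NK (23 and 1), proximal tubule (19 and 91), and loop, distal or collecting duct (193 and 6). A further 106 and 23 cells had markers of several classes, and 443 and 191 stayed unassigned. These classes are ranges of a score: 82 fibroblasts labelled sham and 15 labelled UUO lay within 5 UMIs per 10000 above the minimum, and 52 and 21 cells lay as close below it. Median marker shares in fibroblasts labelled UUO were 170 per 10000 UMIs for fibroblast markers, 8.16 for proximal tubule and 3.0 for erythroid markers, the last 2 being 0 in fibroblasts labelled sham. The transcripts of the sorted receptors were present: Pdgfra UMIs were found in 74.1% and 64.2% of stromal cells, and Pdgfrb UMIs in 79.8% and 49.2%. Pdgfra is itself among the fibroblast markers, so its share was raised in part by the class rule.

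All 7 genes are protein-coding and lie on 4 autosomes in the GENCODE M21 annotation of GRCm38 (mm10). Thy1 spans chr9:44043384-44048579 and Nt5e chr9:88327197-88372092, both on the plus strand. Eng spans chr2:32646595-32682669 and Entpd2 chr2:25395874-25401321 on the plus strand, and Itga8 spans chr2:12106632-12301922 on the minus strand. Cd248 spans chr19:5068078-5070682 on the plus strand and Vcam1 chr3:116109949-116129688 on the minus strand. Npdc1 overlaps the last 1971 bases of the Entpd2 gene region on the same strand, so UMIs of these neighbours could be shared between them. Npdc1 was at 228 CPM labelled sham and 153 CPM labelled UUO in stromal cells, and 99.9% and 99.3% of nonzero Entpd2 values were whole UMIs. The part of shared UMIs in the Entpd2 level was not tested. Eng shares 61 bases with Fpgs on the opposite strand. Small RNA genes within Eng were at 3.91 CPM or less, and other gene models overlapping Itga8 or Vcam1 at 2.58 CPM or less.

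Promoter sequence is shown for 3 members, because in the library labelled UUO Eng and Itga8 were highest in stromal cluster 1 and Entpd2 in others, as described further on. RefSeq (GRCm38.p6) start sites were found for 4 of the 7, and the window of Nt5e lies in its own annotated exon and is not shown. The window of Itga8 overlaps an exon of the antisense gene E030013I19Rik on the opposite strand. Each sequence is the 250 bases before the start, 5′ to 3′ on the gene's strand: chr2:32646345-32646594 (plus) for Eng, chr2:12301945-12302194 (minus) for Itga8, chr2:25395624-25395873 (plus) for Entpd2. Capitals mark matches on either strand to the 6 motifs searched. These were the GC box (GGGCGG), the CCAAT box in those letters, the TATA box (TATAAA), the E-box (CANNTG), the AP-1 site (TGANTCA) and the SMAD box (CAGAC).
Eng: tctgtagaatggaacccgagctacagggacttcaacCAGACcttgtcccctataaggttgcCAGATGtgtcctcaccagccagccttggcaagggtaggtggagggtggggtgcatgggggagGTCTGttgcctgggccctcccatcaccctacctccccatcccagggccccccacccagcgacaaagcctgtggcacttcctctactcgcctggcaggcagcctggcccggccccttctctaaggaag
Itga8: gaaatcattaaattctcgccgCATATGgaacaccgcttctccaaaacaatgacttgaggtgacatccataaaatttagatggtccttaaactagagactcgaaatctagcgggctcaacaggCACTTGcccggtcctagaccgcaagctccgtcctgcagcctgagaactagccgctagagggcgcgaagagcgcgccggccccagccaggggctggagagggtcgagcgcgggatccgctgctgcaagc
Entpd2: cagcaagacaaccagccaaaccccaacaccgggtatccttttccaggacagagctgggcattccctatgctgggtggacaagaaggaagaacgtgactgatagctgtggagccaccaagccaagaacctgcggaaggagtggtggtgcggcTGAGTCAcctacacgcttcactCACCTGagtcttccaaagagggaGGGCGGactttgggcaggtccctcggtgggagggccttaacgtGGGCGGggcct
The Eng window held 2 SMAD boxes, 214 and 127 bases before the start, and 1 E-box at 189. Itga8 held 2 E-boxes, at 229 and 128 bases. Entpd2 held 1 AP-1 site at 99 bases, 1 E-box at 77 and 2 GC boxes at 54 and 11. None of the 3 held a CCAAT or TATA box in these letters. Such matches are common: of 32526 windows of this length, 42.2% held a SMAD box, 66.2% an E-box, 33.0% a GC box and 6.73% an AP-1 site. They are descriptions of sequence and not binding sites.

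Across all stromal cells, Entpd2, Nt5e and Vcam1 were higher in the library labelled UUO, Thy1 was higher in the library labelled sham, and Eng, Cd248 and Itga8 differed by less than 2-fold. Levels are counts summed over the cells of a class and divided by their total, in CPM, and the 2-fold rule was applied after adding 5 CPM, which shrinks ratios of low genes. By that rule Entpd2, Nt5e and Vcam1 were higher and Thy1 lower. Nt5e passed the filter of 10 CPM in either library only through the library where it is high, and the other 6 members passed in both, 2 of them higher and 1 lower. Of the 9635 genes that passed it, 12.3% met the rule as higher in the library labelled UUO and 4.77% as lower, and 60.9% and 39.6% of these calls were of genes that passed only where they are high. The median log2 ratio was 0.71 over the 7 members and -0.01 over all genes tested.

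Thy1 had the lowest rank of the set, at 315 CPM (95% exact Poisson interval 310.3 to 319) labelled sham and 56.2 CPM (49.2 to 64.0) labelled UUO. It was thus 5.59-fold (exact conditional binomial interval 4.91 to 6.40) higher in the library labelled sham. After adding 5 CPM its log2 ratio was -2.38, and 0.343% of genes tested lay below that. Entpd2 stood at 27.1 CPM (25.9 to 28.4) against 199 CPM (185 to 213), a ratio (UUO over sham) of 7.33 (6.74 to 7.97). With 5 CPM added its log2 ratio was 2.665, and 99.1% of genes tested lay below that. Nt5e was sparse in both, at 3.15 CPM (2.74 to 3.61) from 210 UMIs against 24.0 CPM (19.5 to 29.2) from 98 UMIs, a ratio of 7.60 (5.92 to 9.70). After adding 5 CPM its log2 ratio was 1.83, and 1.22 among cells with Y-linked UMIs only. Vcam1 stood at 62.0 CPM (60.2 to 64.0) against 227 CPM (213 to 242), a ratio of 3.67 (3.41 to 3.94). None of these pairs of intervals overlapped.

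The other 3 members were modestly higher in the library labelled UUO. Itga8 was at 18.0 and 32.5 CPM (ratio 1.81, 1.5 to 2.17), Cd248 at 56.4 and 89.2 CPM (1.58, 1.42 to 1.76) and Eng at 288 and 396 CPM (1.37, 1.31 to 1.45). Cd248 came close to equality among cells with Xist UMIs only (log2 ratio 0.11, against 0.62 in all stromal cells), and Eng with a stricter stromal minimum (0.10, against 0.45). Shares of stromal cells with a UMI depend on depth, which differed between the libraries. Without thinning, a Thy1 UMI was found in 61.3% and 18.0% of stromal cells and an Eng UMI in 74.5% and 66.1%. After each cell was thinned to 1000 UMIs, leaving out 160 and 39 shallower cells, the Thy1 shares were 22.0% and 4.08% and the Eng shares 25.1% and 30.8%, so the order of Eng turned. Thinned shares of Entpd2 were 2.80% and 13.8%, of Vcam1 6.43% and 17.8%, and of Nt5e 0.362% and 2.90%. Every member was thus ordered by its thinned share as by its CPM.

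**Figure D1:**
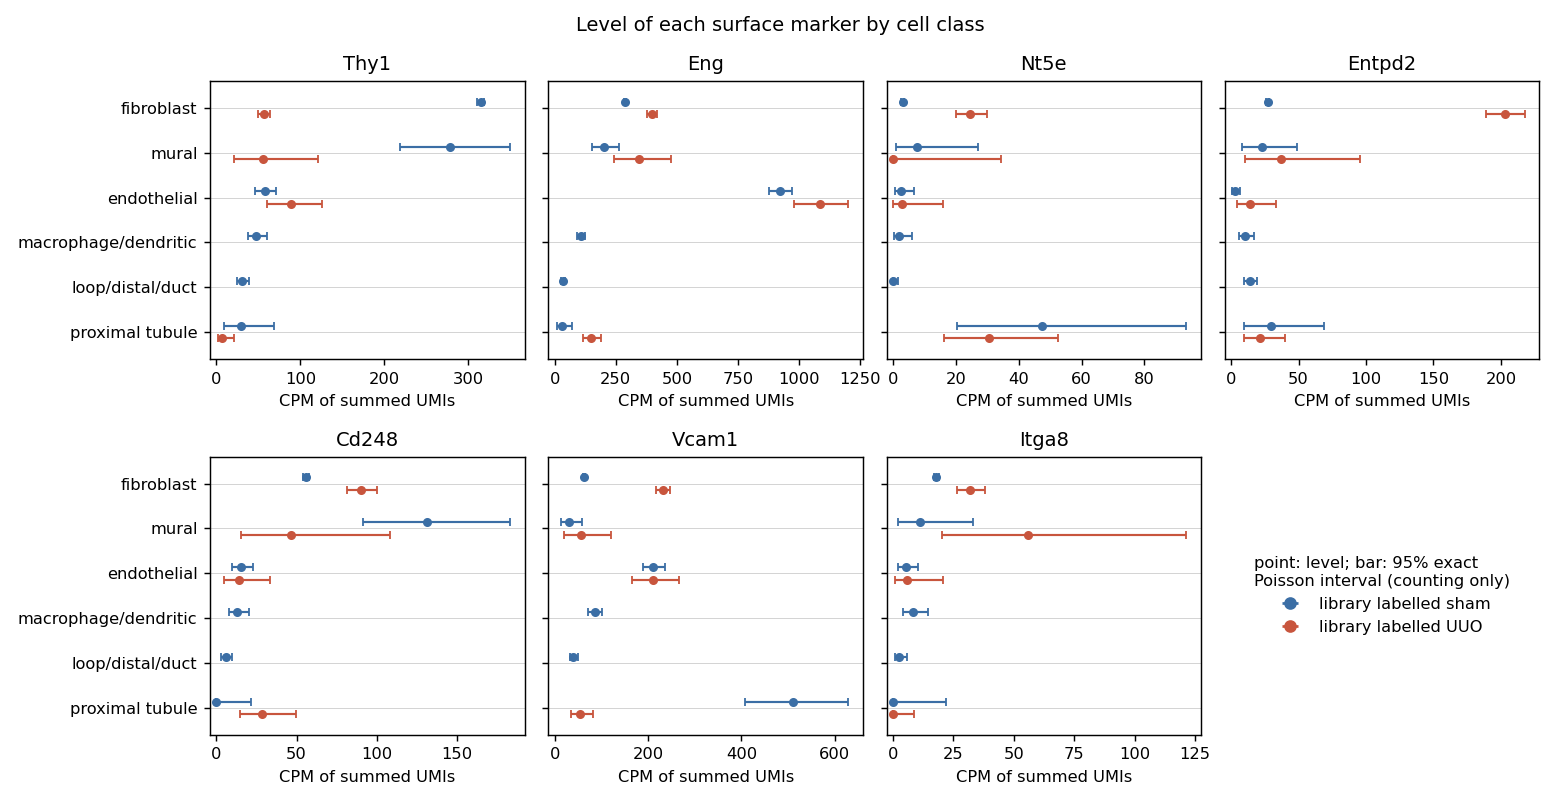
Level of each of the 7 genes (x axis, CPM of summed UMIs, linear) by cell class (y axis) in the library labelled sham (blue) and the library labelled UUO (red); bars are 95% exact Poisson intervals, and classes under 19 cells and the T or NK class are not drawn. Eng peaked in endothelial cells of both libraries at 923 and 1086 CPM, and Entpd2 in fibroblasts labelled UUO at 203 CPM.

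Thy1 UMIs lay mostly in stromal cells, and the few T or NK cells also held them. Of all Thy1 UMIs of the library labelled sham, 97.1% lay in stromal cells, which held 89.1% of all UMIs. Fibroblasts (315 CPM) and mural cells (279 CPM, 219 to 349.7) had overlapping intervals there. The 23 T or NK cells stood above both at 530 CPM (396 to 695) from 52 UMIs, and mouse T cells are known to carry THY1. Endothelial, macrophage or dendritic, loop or duct and proximal tubule cells followed at 57.3, 47.7, 31.0 and 29.6 CPM. The level in loop, distal or collecting duct cells was 9.84% (7.67 to 12.4) of that in fibroblasts, and the summed fibroblast markers in the same cells were at 8.70%. Among cells labelled UUO, fibroblasts (56.2 CPM) and mural cells (55.8 CPM, 20.5 to 121) did not stand above endothelial cells (88.6 CPM, 60.2 to 126), and proximal tubule cells had 7.07 CPM from 3 UMIs. The 31 endothelial UMIs lay in 11 of 74 cells (14.9%), while 18.1% of fibroblasts had a Thy1 UMI.

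Eng was highest in endothelial cells of both libraries, its known main site. It reached 923 CPM (875 to 973) in 351 endothelial cells labelled sham and 1086 CPM (979.8 to 1201) in 74 labelled UUO, 3.20-fold and 2.73-fold the level of fibroblasts. Fibroblasts followed at 289 CPM (285 to 293) and 398 CPM (378 to 418). Mural cells had 203 CPM (153 to 265) and 344 CPM (242 to 474), the latter overlapping with fibroblasts. Macrophage or dendritic cells labelled sham had 107 CPM (91.0 to 125), above the 32.7 CPM (25.7 to 41.1) of loop and duct cells. Proximal tubule cells labelled UUO had 148 CPM (114 to 190.0), or 37.3% (28.5 to 48.0) of the fibroblast level, where the fibroblast markers stood at 9.91%. Because stromal cells were so much more numerous, they still held 89.2% of Eng UMIs of the library labelled sham and 66.4% of those labelled UUO. Their shares of all UMIs were 89.1% and 73.8%.

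The ectonucleotidase genes differed from each other in where they were found. Nt5e was at 3.14 CPM (2.72 to 3.59) in fibroblasts labelled sham and at 47.4 CPM (20.5 to 93.3) in the 19 proximal tubule cells of that library, from 8 UMIs. Among cells labelled UUO the order was not resolved: proximal tubule cells had 30.6 CPM (16.3 to 52.4) and fibroblasts 24.6 CPM (19.97 to 29.98). Proximal tubule markers took a median of 282 per 10000 UMIs in those tubule cells and 8.16 in the fibroblasts, and the part of such RNA in the Nt5e level was not tested. No Nt5e UMI was found in 193 loop, distal or collecting duct cells of the library labelled sham, so the share of such cells with a UMI could be up to 1.55%. Endothelial cells had 2.64 CPM and 2.86 CPM, from 4 and 1 UMIs. Entpd2 was fibroblast-rich in the library labelled UUO, at 203 CPM (189 to 218) against 14.3 CPM (4.64 to 33.4) in endothelial cells, 21.2 CPM (9.70 to 40.3) in proximal tubule and 37.2 CPM (10.1 to 95.2) in mural cells. In fibroblasts labelled sham it was at 27.1 CPM, which overlapped with mural (22.6 CPM, 8.29 to 49.1) and proximal tubule cells (29.6 CPM, 9.61 to 69.1). Loop and duct cells had 13.7 CPM (9.32 to 19.5), 50.5% of the fibroblast level, and endothelial cells 2.64 CPM, 9.72% of it.

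Cd248 was highest in mural cells and fibroblasts of the library labelled sham. Its 45 mural cells had 132 CPM (91.8 to 183), 2.35-fold (1.63 to 3.27) the 56.1 CPM (54.3 to 58.0) of fibroblasts. Endothelial (15.2 CPM), macrophage or dendritic (13.1 CPM) and loop or duct cells (5.75 CPM) followed, and 0 of 19 proximal tubule cells had a UMI. Cells labelled UUO gave 90.4 CPM (81.3 to 100.2) in fibroblasts and 46.5 CPM (15.1 to 108) in the 25 mural cells, from 5 UMIs, so the order of these classes was not resolved there. Endothelial cells had 14.3 CPM (4.64 to 33.4).

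Vcam1 was higher in several other classes than in fibroblasts labelled sham, and Itga8 in none of them. Vcam1 reached 509 CPM (407 to 629) in proximal tubule cells labelled sham, of which 8 of 19 held its 86 UMIs, and 211 CPM (189 to 236) in endothelial cells. Macrophage or dendritic cells had 85.7 CPM (71.3 to 102), fibroblasts 62.2 CPM (60.3 to 64.1) and loop or duct cells 40.3 CPM (32.4 to 49.4). Among cells labelled UUO, fibroblasts (232 CPM, 217 to 247) and endothelial cells (212 CPM, 166 to 266) overlapped, and proximal tubule cells were at 54.2 CPM (34.4 to 81.3). The endothelial intervals of the libraries thus overlapped and the fibroblast intervals did not. Itga8 had 18.0 CPM (16.98 to 19.03) in fibroblasts labelled sham and 11.3 CPM (2.33 to 33.0) in mural cells, against 2.65 CPM (0.974 to 5.78) in loop or duct and 5.27 CPM (2.28 to 10.4) in endothelial cells. Fibroblasts labelled UUO had 31.9 CPM (26.6 to 37.9) and mural cells 55.8 CPM (20.5 to 121), which overlap. None of the 19 and 91 proximal tubule cells held an Itga8 UMI, which allows shares of up to 15.8% and 3.30%.

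Stromal cells were then clustered within each library without the 7 genes, and the members fell into different clusters. A cluster is named by number and leading genes, and clusters 3 and 7 labelled sham and 4 labelled UUO (23.9% and 10.7% of stromal cells) are left out of ranks. Their median depths, 2470, 1607 and 1229 UMIs, lay far under the stromal medians of 8039 and 5197. Eng and Nt5e were highest in cluster 1 of each library, led in both by Serpina1b, Clca3a1, Fbln5 and Slc40a1. Eng reached 492 CPM (480.2 to 503) in its 1709 cells labelled sham and 951 CPM (897 to 1007) in its 233 cells labelled UUO. Nt5e had 149 of its 210 stromal UMIs there in the former library and 88 of 98 in the latter, at 10.5 CPM (8.89 to 12.3) and 72.2 CPM (57.9 to 88.9). Itga8 was also high, at 32.1 CPM (29.2 to 35.2) and 77.9 CPM (63.0 to 95.3), and Thy1 was at its lowest, at 94.2 CPM (89.2 to 99.3) and 15.6 CPM (9.38 to 24.3). Thy1 in cluster 5 labelled sham, led by Spp1 and Cd34, overlapped with the former at 105 CPM (97.1 to 113), and Itga8 in cluster 10, led by Cldn11 and Cxcl2, was at 43.8 CPM (28.0 to 65.1).

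Each library had a cluster in which Entpd2 and Cd248 were both high and Nt5e and Itga8 near 0. Cluster 8 labelled sham (171 cells, led by Meg3, Sfrp4, C3 and Ptx3) had 152 CPM of Entpd2 (134 to 173) and 167 CPM of Cd248 (148 to 188). Cluster 3 labelled UUO (71 cells, led by Ptx3, Myoc and Lrrn4cl) had 301 CPM (260 to 346) and 212 CPM (178 to 251). Neither cluster held an Nt5e UMI (upper limits of 2.29 and 5.75 CPM), and Itga8 was at 3.73 and 4.67 CPM. Low Nt5e was not particular to them. Its median over the clusters that are not shallow was 0.741 CPM labelled sham and 5.02 CPM labelled UUO. Entpd2 was also at 284 CPM (256 to 316) in cluster 2 labelled UUO (Mfap4, Wisp2, Mmp3) and 370 CPM (317 to 429) in its cluster 5 (Dlk1, Apod, Cnmd), the highest of that library. Those clusters held 43.9% and 21.4% of the Entpd2 UMIs of its stromal cells, and cluster 1 held 7.26%. The Car3-led clusters 13 labelled sham and 6 labelled UUO had no Itga8 UMI and 0 and 2 Nt5e UMIs, but there Entpd2 was at 27.6 and 34.2 CPM and Cd248 at 18.4 and 23.9 CPM. In cluster 1 labelled sham, where Nt5e was highest, Cd248 was at 69.6 CPM against 56.4 CPM over all stromal cells.

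Thy1 and Vcam1 each had their own order of clusters. Thy1 was highest in clusters 6 (534 CPM, 516 to 553; led by Rxfp1, Ramp3 and Penk) and 2 (507 CPM, 496 to 518; led by Srgn, Cxcl14 and Dcn) labelled sham, which held 15.5% and 39.2% of its stromal UMIs there. Only cluster 6 labelled UUO, led by Car3 and Foxf1, stood out in that library, at 195 CPM (148 to 253) from 57 UMIs. Vcam1 peaked at 249.5 CPM (210.1 to 294) in cluster 11 labelled sham, led by the interferon-induced genes Cxcl10, Ifit3 and Ifit1, and at 415 CPM (358 to 477) in cluster 5 labelled UUO. Its lowest levels were 14.6 CPM (6.30 to 28.7) in cluster 10 labelled sham and 47.6 CPM (15.5 to 111) in the renin-led cluster 7 labelled UUO. In the renin-led cluster 12 labelled sham, Cd248 was at 132 CPM (88.8 to 188), below only cluster 8 in rank, with overlapping intervals.

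**Figure D2:**
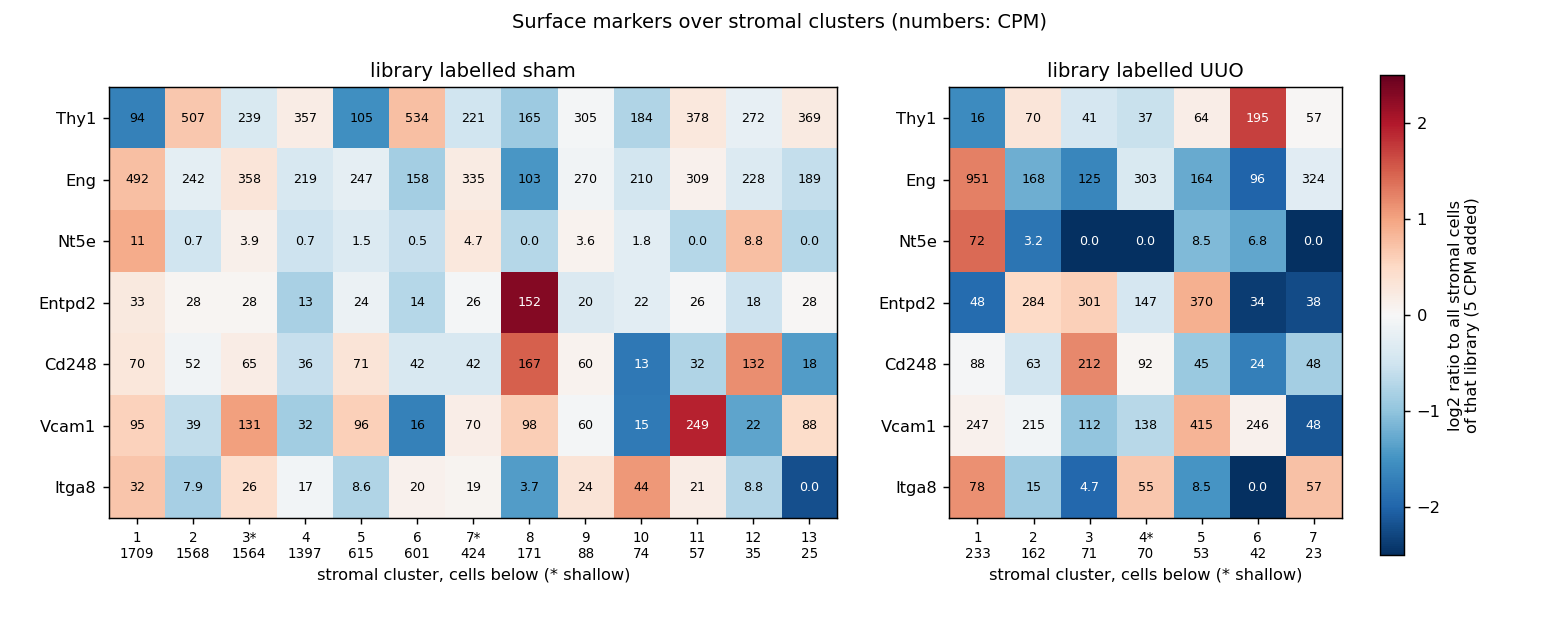
Level of each member (rows) in each stromal cluster (columns, with the number of cells below, an asterisk for shallow clusters) of the library labelled sham (left) and labelled UUO (right). Numbers are CPM and colour is the log2 ratio to all stromal cells of that library after adding 5 CPM; cluster 1 of each library is highest for Eng and Nt5e and lowest for Thy1 among the clusters that are not shallow.

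Comparing libraries within clusters that shared leading genes gave smaller Entpd2 ratios than over all stromal cells. The pairs were chosen after the clusters had been seen, by at least 2 shared genes among the 10 leading genes of each. Clusters 2 and 5 labelled UUO, with 43.9% and 21.4% of the stromal Entpd2 UMIs of that library, had no such partner. The pairs thus leave out most of these UMIs. Between cluster 1 of each library, Entpd2 was at 33.2 and 48.4 CPM, a ratio of 1.46 (1.09 to 1.91), and between cluster 8 labelled sham and cluster 3 labelled UUO the ratio was 1.97 (1.63 to 2.39). Neither interval reached the 7.33 of all stromal cells. The small pairs gave 1.24 (0.407 to 4.14) between clusters 13 and 6, and 2.17 (0.404 to 11.7) between 12 and 7 from 4 UMIs each, an interval that does reach it. Thy1 stayed higher in the library labelled sham in the 4 pairs, by 6.04-fold (3.85 to 10.1) between the clusters 1, 4.08-fold (2.72 to 6.37) between clusters 8 and 3, 4.76-fold (2.07 to 13.5) between the renin-led clusters 12 and 7, and 1.89-fold (1.33 to 2.70) between the Car3-led clusters 13 and 6. Nt5e kept a ratio of 6.87 (5.22 to 9.0) between the clusters 1, and the other pairs held 2 Nt5e UMIs or fewer in either library. Vcam1 had ratios of 2.59 (2.28 to 2.94) between the clusters 1 and 2.81 (1.68 to 4.94) between 13 and 6, and 1.15 (0.852 to 1.52) between 8 and 3. Itga8 had a ratio of 2.43 (1.93 to 3.03) between the clusters 1, above the 1.81 of all stromal cells. Eng and Cd248 did not keep their direction over the pairs. Eng was at 1.93 (1.82 to 2.06) between the clusters 1 and at 0.507 (0.302 to 0.840) between 13 and 6. Cd248 was at 1.26 (1.02 to 1.54) between the clusters 1 and at 0.362 (0.110 to 0.942) between 12 and 7. Clusters 12 and 7 were unlike in UMIs of the contractile genes named below, at 66.3 and 310 per 10000. Clusters 8 and 3 shared only C3 and Ptx3 among leading genes. They were unlike in UMIs of the resting genes named below, at 19.6 and 93.0 per 10000.

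**Figure D3:**
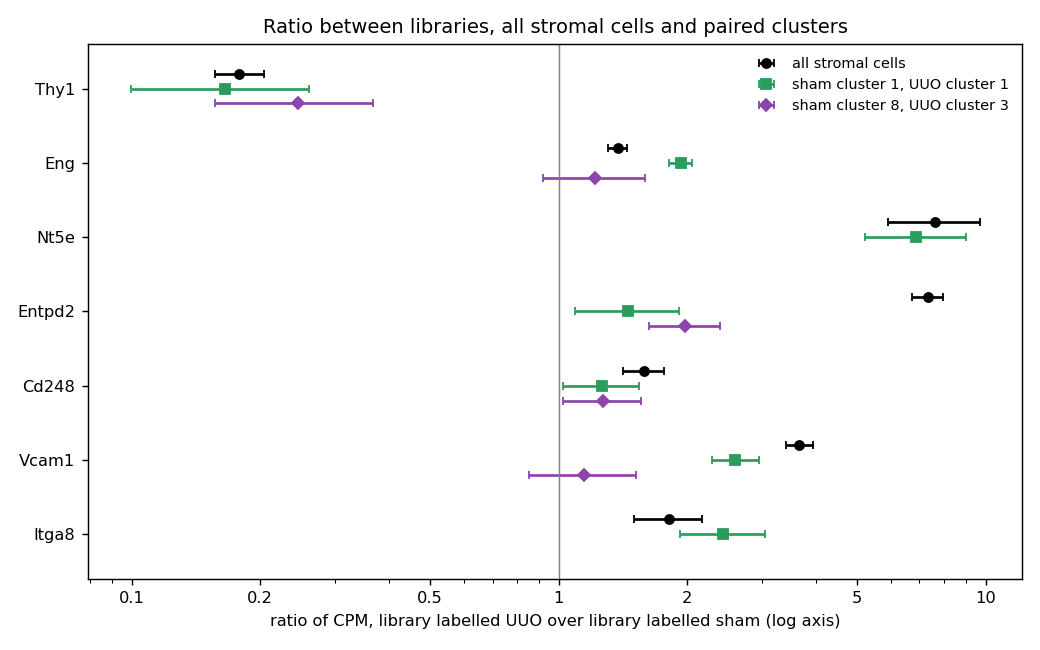
Ratio of CPM, library labelled UUO over library labelled sham (x axis, log scale), for each member over all stromal cells (black), cluster 1 of each library (green) and sham cluster 8 with UUO cluster 3 (purple); bars are 95% exact conditional binomial intervals and the line marks 1. Nt5e and Itga8 have no purple point because of 9 UMIs or fewer; the Entpd2 ratio is 7.33 over all stromal cells and 1.46 and 1.97 in the pairs.

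Fibroblasts were also split by their share of UMIs from contractile genes (Acta2, Tagln, Myl9, Tpm2, Cnn1), known from myofibroblasts and smooth muscle, and from resting fibroblast genes (Scara5, Pi16, Cd34, Clec3b, Dpt). The 25% of cells with the highest share were compared with the lowest 25% within each library. In the resting split labelled sham, the low group was instead all 2742 cells with no resting UMI. In the library labelled UUO, the contractile-high group (158 cells) had more Eng (734 against 161 CPM, 4.55-fold, 3.84 to 5.42), Nt5e (51.7 against 7.82 CPM, 6.61-fold, 3.11 to 16.1) and Itga8 (61.8 against 8.80 CPM, 7.03-fold, 3.47 to 16.1). Entpd2 went the other way, at 71.9 against 339 CPM, 4.71-fold (3.64 to 6.18) lower. By the 2-fold rule 3 members were higher, of which Nt5e and Itga8 passed the filter only in the group where they are high, and 1 lower, where 7.96% and 4.86% of 9794 genes were. The resting split gave the reverse order for these 4 genes. The resting-high group had more Entpd2 (383 against 48.4 CPM, 7.92-fold, 5.64 to 11.5) and Cd248 (158 against 75.3 CPM, 2.10-fold, 1.55 to 2.88). It had less Eng (141 against 780.1 CPM), and 3 UMIs each of Nt5e and Itga8 against 45 and 46. Here 2 members were higher and 3 lower by the rule, Nt5e and Itga8 again passing only where they are high, where 5.72% and 12.4% of 9914 genes were. The groups also differed in depth, with medians of 6611 and 3842 UMIs in the resting split.

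In the library labelled sham, the contractile split moved Entpd2 and Vcam1 most among the members. Between contractile groups of 2071 cells each, Entpd2 was at 16.7 against 43.8 CPM (2.62-fold lower, 2.29 to 2.99) and Vcam1 at 36.3 against 86.9 CPM (2.39-fold lower, 2.18 to 2.62). Of the 6 members that passed the filter, which Nt5e did not, these 2 were called lower and none higher, where 0.943% and 1.27% of 8590 genes were. Thy1 was 1.77-fold (1.7 to 1.84) higher in the contractile-high group, at 395 against 224 CPM, and Itga8 1.47-fold (1.24 to 1.76). Eng differed little, at 255 against 270 CPM. Between resting groups (2071 cells, and 2742 with no resting UMI), Eng was at 216 against 379 CPM and Itga8 at 13.1 against 27.0 CPM, while Thy1, Vcam1 and Cd248 lay between 0.984-fold and 1.16-fold. Nt5e showed the largest fold of this split, at 1.03 against 5.78 CPM (5.63-fold lower, 3.37 to 9.93, from 18 and 89 UMIs), but lay under the filter of 10 CPM. None of the other 6 was called there, where 0.519% of 8675 genes were called higher and 0.173% lower. These resting groups also differed in depth, with medians of 8833 UMIs in the high group and 4741 in the low group. In the 77 fibroblasts labelled sham with cycling markers, the 7 levels had intervals overlapping those of the other 8206 fibroblasts, with Thy1 at 293 against 315 CPM. Only 1 fibroblast labelled UUO met that rule.

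**Figure D4:**
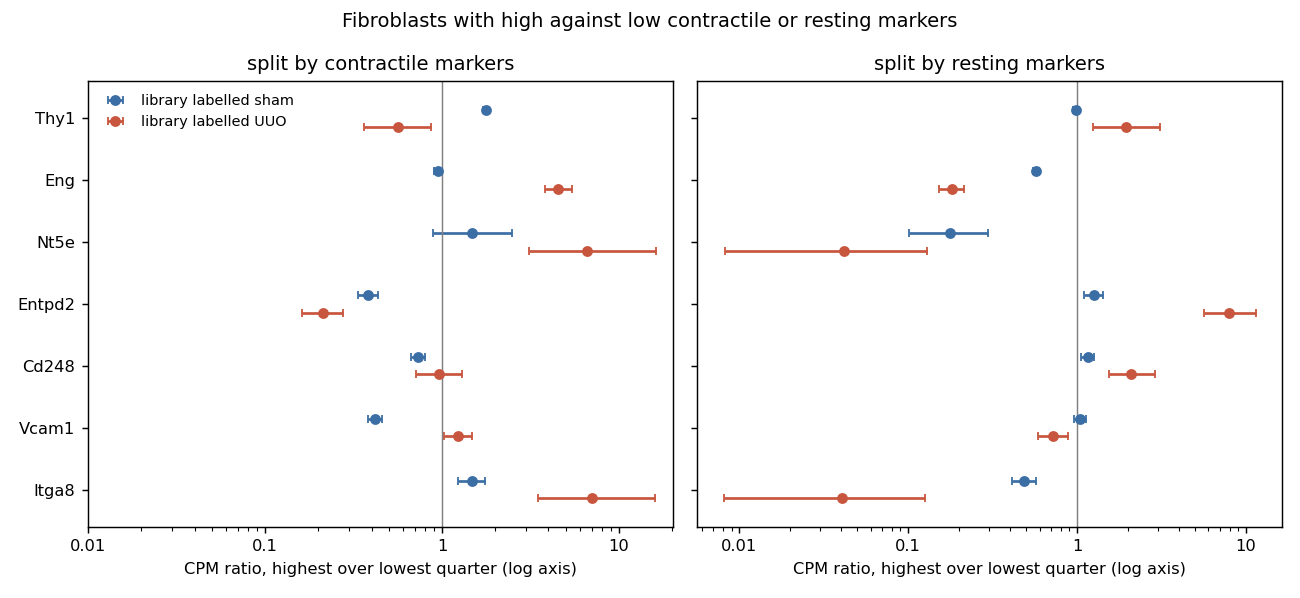
Ratio of CPM between the 25% of fibroblasts with the highest share and the 25% with the lowest (x axis, log scale) by contractile markers (left) and resting markers (right), for the library labelled sham (blue) and labelled UUO (red); bars are 95% exact conditional binomial intervals. In the library labelled UUO, Eng, Nt5e and Itga8 lie right of 1 on the left and left of 1 on the right, and Entpd2 the reverse. For the resting split labelled sham, the low group is instead all 2742 cells with no resting UMI.

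Pairs of members were counted in single cells at equal depth. With fibroblasts thinned to 1000 UMIs, Eng and Nt5e were found together in 1.99% of 592 cells labelled UUO, 2.13 (1.13 to 3.77) times the product of their shares. Eng and Entpd2 were together in 2.63%, 0.599 (0.353 to 0.990) times the product. Of 8126 cells labelled sham, 0.980% had both Thy1 and Vcam1, 0.692 (0.552 to 0.864) times the product, and 4.70% had both Thy1 and Eng, 0.851 (0.770 to 0.939) times. Eng and Vcam1 were at 1.19 (1.01 to 1.39). Intervals of the other pairs in each library included 1. With cells thinned to 2000 UMIs, which leaves 7468 and 520 cells, these 5 intervals still excluded 1, and 3 more did. Those were Thy1 with Itga8 (0.759, 0.602 to 0.946) and with Cd248 (0.872, 0.768 to 0.985) labelled sham, and Eng with Itga8 (1.64, 1.09 to 2.36) labelled UUO. The shares rise with depth: Thy1 and Eng were then together in 13.5% of cells labelled sham, and Eng and Vcam1 in 15.0% of cells labelled UUO. Since the shares are set by depth, these ratios say little of cells that carry both proteins.

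The partners of the members were followed as lists, each read against the background given above, and members that passed the filter only where they are high are named beside the counts. Among nucleotide and adenosine genes, 4 of 13 tested members were higher and 2 lower labelled UUO, and the median log2 ratio was 0.36. Of the 4, P2ry1 and Entpd1 passed only through the library labelled UUO. P2ry1, an ADP receptor gene, was at 0.330 and 15.6 CPM, a ratio of 47.4 (28.8 to 80.8), and Slc29a1, a nucleoside transporter gene, at 78.7 and 285 CPM (3.62, 3.39 to 3.86). Adora2b, an adenosine receptor gene, and Enpp1, whose product makes AMP and pyrophosphate from ATP, favoured the library labelled sham, by 5.09-fold (3.91 to 6.77) and 4.58-fold (3.63 to 5.88). The nucleotide genes thus went both ways. Endoglin partners had 2 of 10 higher and 1 lower, with a median of -0.48. Acvrl1 (ALK1, the type I receptor that binds BMP9 with endoglin) and the co-receptor gene Tgfbr3 favoured the library labelled UUO, by 2.19-fold (1.99 to 2.40) and 2.51-fold (2.18 to 2.87). Tgfbr1 and Tgfbr2, the receptors for TGF-beta itself, were on the other side by 2.90-fold (2.43 to 3.49) and 1.76-fold (1.56 to 1.99).

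Integrin subunits and ITGA8 ligands had 2 of 11 higher (Npnt and Vtn, both passing only through the library labelled UUO) and 3 lower, with a median of -0.21. Itgb1, the partner subunit of ITGA8, was at 406 and 349 CPM. Npnt, the gene of nephronectin, had a ratio of 5.59 (4.18 to 7.40), and Vtn, of vitronectin, 44.2 (31.6 to 62.7). Spp1 (osteopontin) and Tnc (tenascin C) favoured the library labelled sham, by 80.9-fold (75.0 to 87.5) and 5.07-fold (4.43 to 5.83). VCAM1 receptors and other adhesion genes had 1 of 9 higher and 3 lower (median 0.41). The junction genes F11r and Jam2 had ratios of 2.63 (2.14 to 3.22) and 1.88 (1.56 to 2.25). Cdh11, the fibroblast cadherin, and Alcam favoured the library labelled sham, by 3.14-fold (2.84 to 3.46) and 3.29-fold (2.63 to 4.16). The adhesion genes thus went both ways.

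Among THY1 partners and other GPI-anchored proteins, 3 of 11 were higher and 1 lower (median 0.44), Cd55 passing only through the library labelled UUO. The complement regulators Cd55 and Cd59a stood apart from each other, Cd55 at a ratio of 11.96 (10.1 to 14.2) and Cd59a at 0.367 (0.300 to 0.445). Ly6a (Sca-1) had a ratio of 4.79 (4.595 to 4.999), and Adgre5, a receptor gene for THY1 and CD55, was at 26.5 and 28.8 CPM. Of 4 tested group XIV lectins and CD248 ligands, none was called in either direction (median 0.02). Clec14a, an endothelial relative of CD248, had a ratio of 2.12 (1.84 to 2.44) before 5 CPM was added, Lgals3bp and Thbd (thrombomodulin) 1.02 (0.955 to 1.10) and 0.998 (0.920 to 1.08), and Col4a1 0.725 (0.687 to 0.765). Other stromal surface markers had 4 of 14 higher, Dpp4 passing only through the library labelled UUO, and none lower (median 0.31), with Cd34 at 35.4 and 229 CPM (ratio 6.48, 5.997 to 6.99), Pdgfrb at 299 and 169 CPM (0.566, 0.524 to 0.610) and Cd9 at 434 and 355 CPM (0.817, 0.775 to 0.862).

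Genes with the most similar profiles were sought over the 7 profiles of a class in a library with at least 50 cells, among 12369 genes. Pearson's r of log2 values is given as a description over 7 points that share libraries and depth. The nearest genes to Thy1 were Lamtor3, Vcan and Ccdc102a (r = 0.97 to 0.98), and to Eng Iigp1, 2510009E07Rik and Slc43a3 (0.99). For Nt5e they were Gm22133, Cenpc1 and Gnptg (0.97 to 0.98), and those for Entpd2 included Gm45551 and Avpr1a (0.98). For Cd248 they included Fxyd1 and Plekha4 (0.98 to 0.99), and they were for Vcam1 Slc29a1, Ppp1r15a and Sirt1 (0.97 to 0.98), and for Itga8 Ptgs2, Prrx1 and Tmed3 (0.98).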

How the data were processed

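Kidney cells of 1 library labelled sham and 1 labelled UUO were profiled with droplet-based 3′ sequencing (10x Chromium version 2, per the labels). The authors deposited expected counts (UMIs, not normalised) from alevin of Salmon 0.13.1 on mm10, per the submitters' processing notes. At a tolerance of 1e-06, 92.3% and 91.2% of nonzero values were whole. The choice of barcodes in the matrices is not stated in the labels.

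Cells were kept with at least 500 UMIs, 300 genes and at most 20% mitochondrial UMIs (10656 and 1052). Doublets were scored with scanpy 1.11.5 (Scrublet, expected rate 0.06, 2 simulated per cell), and the highest scores were removed at 0.8% per 1000 cells (908 and 9). A cell had another class with at least 3 of its markers and 40 marker UMIs per 10000. It was a fibroblast with at least 3 markers and 30 per 10000, if every other class was under 20. Cells with several classes, or a non-stromal class beside 60 or more fibroblast UMIs per 10000, were mixed. The thresholds were set after the marker distributions had been seen. Stromal cells were clustered within each library (2000 variable genes without the 7 members, 30 components, 20 neighbours, Leiden resolution 0.6).

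Expected counts were summed per class, rounded and scaled to CPM. Log2 ratios were taken after adding 5 CPM. Intervals are exact Poisson (levels), Clopper-Pearson (shares) and conditional binomial (ratios), at 95%, and cover counting error only. A share from a count of 0 was limited by 3 counts. Thinning to 1000 UMIs is the exact expectation of draws without replacement. With 1 library per group no test was made, and calculations were tested on simulated data. The members and lists were chosen with earlier results of these data known. Named genes are the 7 members, the 3 genes with the most similar profile to each, and the 2 highest and 2 lowest log2 ratios of each list. Of these, 2 genes of similar profile are not reported here. Further list members and the cluster pairs were named after their values were seen. Of the gene entries, 52806 of 53698 matched GENCODE M21 with version. Cd248 matched by identifier only. Promoters are from RefSeq (GRCm38.p6).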

Additional observations from a re-analysis of the deposited data

Results flagged for a closer look

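Some contrasts had counting intervals on opposite sides of 1 in different libraries or cluster pairs. These differences were not tested, since each value comes from 1 library. Between the 25% of fibroblasts with the most and the 25% with the fewest contractile UMIs, Thy1 had a ratio of 1.77 (1.7 to 1.84) labelled sham and 0.567 (0.364 to 0.869) labelled UUO. Vcam1 went from 0.418 (0.381 to 0.458) labelled sham to 1.23 (1.02 to 1.48) labelled UUO, and Eng from 0.944 (0.906 to 0.984) to 4.55 (3.84 to 5.42). The groups were cut separately in each library, at 8.25 and 45.5 contractile UMIs per 10000 labelled sham and at 4.44 and 21.7 labelled UUO. Between libraries, Eng had a ratio (UUO over sham as labelled) of 1.93 in the pair of clusters 1 and 0.507 in the Car3-led pair of 25 and 42 cells. Cd248 had ratios of 1.26 (1.02 to 1.54) in the pair of clusters 1 and 1.27 (1.02 to 1.56) between cluster 8 labelled sham and cluster 3 labelled UUO. It had 0.362 (0.110 to 0.942) in the renin-led pair of 35 and 23 cells, the last from 30 and 5 UMIs. The clusters of that pair were unlike in contractile UMIs, at 66.3 per 10000 labelled sham and 310 labelled UUO. Cluster 8 labelled sham and cluster 3 labelled UUO were unlike in resting UMIs, at 19.6 and 93.0 per 10000.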

How the results depend on the processing

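No paired analysis was possible because each group has 1 library. No log2 ratio of a member changed sign under any alternative run. Scaling by the median of ratios shifted genes by -0.03 at the median. A stricter stromal minimum moved Eng to 0.10, Nt5e to 1.47, Entpd2 to 2.82 and Itga8 to 0.44. All retained cells gave Eng 0.61, Entpd2 2.38 and Vcam1 1.497, and equal weight for each cell 0.63, 2.30 and 1.45. A pseudocount of 1 CPM gave Nt5e 2.59 and Entpd2 2.83, and 1 group XIV lectin (Clec14a) was then called higher. Sex-linked UMIs were present in both libraries: 4768 stromal cells labelled sham and 173 labelled UUO had Xist UMIs only, 1392 and 194 Y-linked UMIs only. A further 992 and 76 had both kinds and 1176 and 211 neither, so these subsets may not separate the sexes cleanly. In alternatives added after seeing the data, cells with Xist UMIs only gave Thy1 -2.95, Entpd2 2.54, Cd248 0.11 and Vcam1 1.49, and cells with Y-linked UMIs only gave Thy1 -1.89, Eng 0.27, Nt5e 1.22, Vcam1 2.03 and Itga8 0.31. Leaving out the shallow clusters gave Vcam1 1.92. The causes of these shifts were not tested. Thinning, which lowers depth by construction, took shares of stromal cells labelled sham to 22.0% (Thy1), 25.1% (Eng), 0.362% (Nt5e), 2.80% (Entpd2), 5.49% (Cd248), 6.43% (Vcam1) and 2.05% (Itga8), and labelled UUO to 4.08%, 30.8%, 2.90%, 13.8%, 8.40%, 17.8% and 3.97%. A minimum of 2000 UMIs per cell, no doublet removal, the looser minimum, fibroblasts alone and whole UMIs only left the 7 ratios within their intervals. The near-zero median of the group XIV lectins turned to -0.01 with other scaling or no filter, and without the filter the nucleotide median fell to 0.07. Depth limits Nt5e most, with 210 and 98 stromal UMIs.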

Other observations

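The 191 cells labelled UUO that met no class had levels of Eng, Nt5e and Itga8 above those of the fibroblasts of that library. Eng was at 588 CPM (527 to 654) in them, Nt5e at 55.8 CPM (38.2 to 78.8) and Itga8 at 64.5 CPM (45.4 to 89.0), against 398, 24.6 and 31.9 CPM in fibroblasts. They held 22.1% of that library's Nt5e UMIs and 21.4% of its Itga8 UMIs. Thy1 was at 45.4 CPM (29.6 to 66.4) and Entpd2 at 38.4 CPM (24.1 to 58.1). Their median depth was 2021 UMIs, with medians of 42.6 fibroblast, 14.6 proximal tubule and 16.2 contractile marker UMIs per 10000. Of the 191 cells, 122 had another class at 20 or more marker UMIs per 10000, and 73 lay below the fibroblast minimum. A cell can be in both counts. The 443 unassigned cells labelled sham showed that pattern for Nt5e, at 6.75 CPM (3.69 to 11.3) against 3.14 CPM (2.72 to 3.59) in fibroblasts. They did not show it for Eng, at 227 CPM (207 to 248) against 289 CPM. Itga8 overlapped, at 20.7 CPM (15.0 to 27.9) against 18.0 CPM (16.98 to 19.03). Vcam1 was at 147 CPM (131 to 165) against 62.2 CPM.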
